A study of Homo sapiens with 12 samples.

Results

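The RNA levels of 10 genes of the BCL2 family were measured in MDA-MB-468 cells carrying either thyroid hormone receptor beta or an empty vector, with and without the thyroid hormone T3. The 10 members are BMF, BCL2L11, BBC3, PMAIP1, BIK, BID, BAX, BCL2, BCL2L1 and MCL1. They were chosen by name, 10 of the 56832 gene names counted, with earlier results of these data known. All 10 were found in every library and passed the filter on low counts. MDA-MB-468 is an established cell line from a triple-negative, basal-like breast cancer. Each vector gave 1 stable cell population: pCDH-TRB, which carries the receptor (TRB, gene THRB), or pCDH-EV, the empty vector (EV). After 24 hours in hormone-stripped, phenol-red-free medium, each population received 10 nM T3 or its NaOH vehicle for another 24 hours. Each of the 4 combinations has 3 libraries, 12 in all. The labels do not say that the 3 came from separate cultures, so the p-values measure only how far these libraries differ from each other, which may be technical variation. With 1 population per vector, the receptor and anything else that differs between the populations cannot be told apart.

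BCL2 family proteins decide whether the outer mitochondrial membrane is opened, the step that releases cytochrome c and starts the caspase cascade. Guardians (here BCL2, BCL2L1 and MCL1) keep the membrane closed by holding the effectors (here BAX) and the BH3-only proteins. BH3-only proteins (here BMF, BCL2L11, BBC3, PMAIP1, BIK and BID) are the sensors: they occupy the guardians' groove, and some activate the effectors directly. Much of their control is transcriptional, whereas BAX and BID also need a change in shape or a cut in the protein to act. Gene-level counts add up all transcripts of a gene, so the long and short forms of BCL2L1, MCL1 and BCL2L11, some of which have opposite functions, were not separated.

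The counts assigned to genes ranged from 4241863 to 11955825 per library, and all 6 T3 libraries were deeper than all 6 vehicle libraries. THRB stood at 43.4 ± 0.824 counts per 1000000 (CPM; mean ± SD, n = 3, as for each mean below) in EV vehicle, 38.5 ± 1.23 in EV T3, 140.2 ± 4.15 in TRB vehicle and 328.8 ± 16.7 in TRB T3. The TRB libraries thus held more THRB RNA than the EV libraries, and within the TRB population it was higher with T3, so the hormone and the amount of receptor RNA cannot be told apart there. KLF9, a direct T3 target, was at 2.95, 13.0, 2.44 and 27.1 CPM in the same order, so the EV cells also responded to T3. The 8 epithelial markers of the line were all detected, with summed levels of 10180 to 10580 CPM in EV vehicle, 9768 to 10200 in EV T3, 8570 to 8773 in TRB vehicle and 7264 to 7705 in TRB T3. EGFR was the largest part of that sum (4421 CPM in TRB vehicle and 4274 in TRB T3). Within it, T3 in TRB cells lowered the basal keratins KRT5 (899.7 to 223.6 CPM), KRT17 (372.7 to 122.5) and KRT6A (7.35 to 1.75). EPCAM also fell (354.5 to 311.3 CPM), and CDH1 rose (183.6 to 232.3 CPM). The 4 leukocyte markers summed to 28.2 to 32.7, 49.8 to 52.8, 17.6 to 21.7 and 182 to 194 CPM, nearly all of it CD14, with PTPRC and CD3E at or near 0. The 4 fibroblast markers stayed between 14.8 and 21.5 CPM with DCN at 0. The 4 endothelial markers summed to 3.91 to 6.02 CPM in EV vehicle, 4.35 to 5.21 in EV T3, 4.21 to 4.37 in TRB vehicle and 6.20 to 6.65 in TRB T3. Within that low sum, T3 in TRB cells raised CDH5 (0.427 to 3.68 CPM) and PECAM1 (1.15 to 2.22 CPM) and lowered KDR (2.36 to 0.347 CPM), while VWF stayed below 0.53 CPM in every library. Of the hormone receptors expected low in this line, PGR was at 0 and ESR1 averaged 6.23 to 7.09 CPM in 3 groups and 10.4 CPM in TRB T3. Reads from mitochondrial ribosomal RNA made up 0.326% to 2.68% of gene counts in the vehicle libraries and 0.05% to 0.09% in the T3 libraries. Depth, this share, the epithelial sum and several of its markers, CD14, COL1A1, CDH5, KDR and ESR1 thus moved with T3 in TRB cells. Apart from depth, their part in the member results was not tested. Depth was varied by thinning the counts. Thinning also lowers the power of the tests, so a call lost there cannot be told apart from a call lost to fewer reads. In bulk RNA, fewer cells of a kind and less RNA per cell cannot be told apart.

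In the TRB cells, T3 raised the RNA of 3 BH3-only members and lowered 5 other members. BMF rose 8.78-fold, BCL2L11 1.575-fold and BID 1.25-fold, while BIK fell most (log2 fold change -0.84), followed by PMAIP1 (-0.30), BAX (-0.27), MCL1 (-0.24) and BCL2L1 (-0.21). BBC3 (-0.43) and BCL2 (-0.22) did not pass the test. Calls are at an adjusted p below 0.05 from edgeR's quasi-likelihood test, with Benjamini-Hochberg adjustment over the 14549 genes tested. Of all genes tested, 44.4% were called in this comparison, 22.4% up and 21.9% down, so 8 of 10 called members has to be read against a response that reached over a large part of the transcriptome. The T3 and vehicle libraries did not overlap for 7 of the 10 members, against 51.9% of all genes. The median log2 fold change was -0.23 over the members and 0.00 over all genes, and the median size of change was 0.31 against 0.20. The plot of CPM by library shows each member in each of the 12 libraries.

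**Figure D1:**
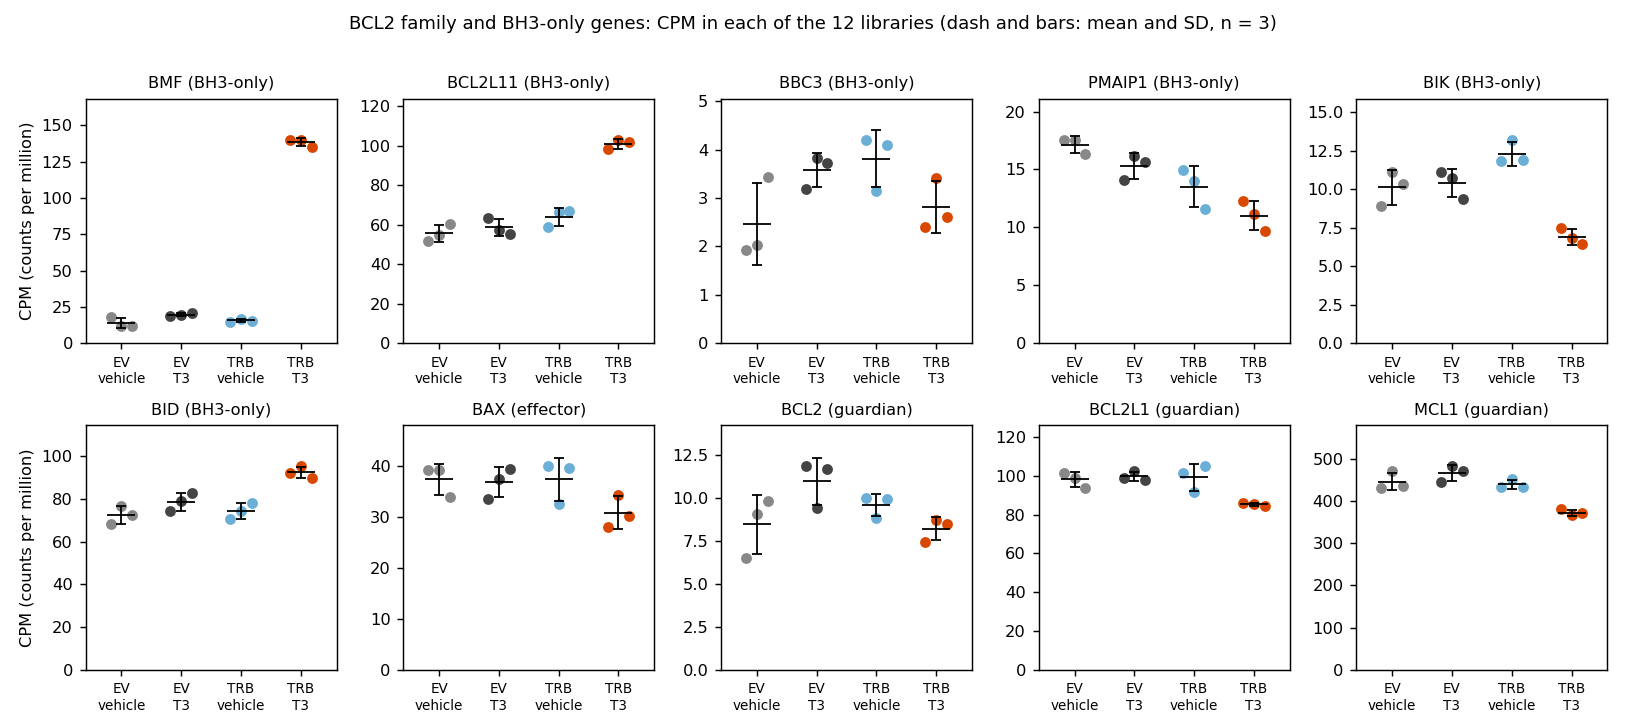
Each panel shows 1 member's CPM (linear axis from 0) in the 12 libraries, by vector and treatment; points are libraries, the dash and bars the mean and SD of 3. BMF in TRB T3 sits at 135.2 to 140.0 CPM, above all 9 other libraries (11.7 to 20.7 CPM), and BIK and MCL1 are lowest in TRB T3.

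BMF, a BH3-only gene whose protein is held at the actin and myosin motor complexes in attached cells and freed when anchorage is lost, had the widest range of the 10. The gene lies at chr15:40087890-40108892 on the minus strand (GRCh38, GENCODE 29). It measured 14.98, 16.9 and 15.2 CPM in the TRB vehicle libraries and 140.0, 140.0 and 135.2 CPM in the TRB T3 libraries. The 3 T3 values lie close together and far above the 3 vehicle values, with no overlap. This gave a log2 fold change of 3.13 ± 0.071 (SE; 95% interval 2.99 to 3.28; edgeR adjusted p = 7.495e-48). BMF ranked 44th of the 14549 genes from the highest log2 fold change. A change of at least 2-fold that passed the test was seen in 6.4% of genes, and BMF was the only member among them. With the counts of all libraries thinned once at random to the depth of the shallowest (equal depth, below), the BMF log2 fold change was 2.97. An antisense gene, BMF-AS1, covers 461 bases of BMF's exons (8.46%), and the sources used here do not say whether counting used strand, so reads from that stretch are uncertain.

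BCL2L11 encodes BIM, a BH3-only protein that binds all guardians and can activate BAX and BAK1. It lies at chr2:111119378-111168447 on the plus strand. Its TRB vehicle libraries read 58.6, 66.6 and 66.8 CPM, and its TRB T3 libraries 98.2, 103.0 and 101.8 CPM. The T3 libraries were all higher, with a clear gap to the vehicle libraries. The log2 fold change was 0.66 ± 0.055 (edgeR adjusted p = 1.145e-16), smaller than that of BMF, and the interval of 0.55 to 0.77 lies wholly below BMF's. A long noncoding gene on the other strand, MIR4435-2HG, overlaps 727 bases of BCL2L11's exons (10.92%).

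Promoter sequences of BMF and BCL2L11 are shown because these BH3-only members had the largest rises with T3 and the same direction. They are 300-base windows from RefSeq (GRCh38.p14), from 250 bases before to 50 after an annotated transcript start, 5′ to 3′ on the gene's strand; 8 of the 10 members matched this table. BMF has 2 annotated starts with windows. Capitals mark a match to GTAAACA, the core bound by FOXO factors, in BCL2L11, or to AGGTCA, the half-site bound by thyroid hormone receptor, in the second BMF window. The first BMF window holds neither.
BCL2L11 promoter, chr2:111120664-111120963 (plus strand): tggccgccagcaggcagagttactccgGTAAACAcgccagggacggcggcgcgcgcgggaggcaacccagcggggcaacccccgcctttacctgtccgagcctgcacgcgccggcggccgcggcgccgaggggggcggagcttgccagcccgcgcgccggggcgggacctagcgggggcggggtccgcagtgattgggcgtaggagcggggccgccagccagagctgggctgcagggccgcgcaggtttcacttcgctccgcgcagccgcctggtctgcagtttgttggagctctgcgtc
BMF promoter, chr15:40108830-40109129 (minus strand): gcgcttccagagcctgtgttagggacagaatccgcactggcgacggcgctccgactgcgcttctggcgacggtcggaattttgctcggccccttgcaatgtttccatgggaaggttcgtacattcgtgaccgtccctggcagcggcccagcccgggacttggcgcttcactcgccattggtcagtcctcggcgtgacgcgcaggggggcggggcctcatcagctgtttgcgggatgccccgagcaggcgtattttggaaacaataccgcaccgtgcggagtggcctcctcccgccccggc
BMF promoter, chr15:40106917-40107216 (minus strand): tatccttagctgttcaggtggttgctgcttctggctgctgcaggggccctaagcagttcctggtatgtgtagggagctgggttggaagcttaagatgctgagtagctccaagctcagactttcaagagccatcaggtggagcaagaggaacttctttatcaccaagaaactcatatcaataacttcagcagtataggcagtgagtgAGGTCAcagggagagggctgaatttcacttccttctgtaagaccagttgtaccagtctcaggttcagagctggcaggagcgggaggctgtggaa
The motifs searched on both strands, in the windows of all genes, were the FOXO core GTAAACA, the receptor half-site AGGTCA, the direct repeat of that half-site with 4 bases between the copies (the spacing thyroid hormone receptor prefers; each repeat also counts as a half-site) and the E-box, whose letters are CACGTG. The FOXO core began 223 bases before the BCL2L11 start and was present in 3.42% of 35116 windows. The half-site began 44 bases before the second BMF start and was present in 13.83% of windows. The direct repeat was in 0.02% of windows and in none of the members'. CACGTG, in 7.26% of windows, occurred in those of BBC3, BID and, with 4 matches, BAX. A match to these letters is a description of the window and shows no binding.

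BID, a BH3-only protein that caspase-8 cuts to link death receptors to mitochondria, lies at chr22:17734138-17774770 on the minus strand. It measured 70.5, 74.1 and 78.3 CPM in TRB vehicle and 91.9, 95.4 and 90.0 CPM in TRB T3. The groups did not overlap, and the distance between them was small beside BMF's. BID's log2 fold change was 0.32 ± 0.052 (edgeR adjusted p = 6.077e-07).

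BIK, a BH3-only protein of the endoplasmic reticulum that binds BCL2 and BCL2L1, moved the other way. The gene lies at chr22:43110748-43129712 on the plus strand. It read 11.8, 13.2 and 11.9 CPM in TRB vehicle and 7.46, 6.83 and 6.46 CPM in TRB T3. All T3 libraries were lower than all vehicle libraries, and they were also lower than all 6 EV libraries. BIK's log2 fold change was -0.84 ± 0.130 (95% interval -1.10 to -0.58; edgeR adjusted p = 1.399e-07) and was the largest fall among the members. BIK ranked 14030th of the 14549 genes from the highest log2 fold change.

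PMAIP1 (NOXA), a BH3-only protein that pairs mainly with MCL1, and BBC3 (PUMA), which binds all guardians, are the remaining BH3-only members. PMAIP1, at chr18:59899948-59904306 on the plus strand, measured 14.98, 14.0 and 11.6 CPM in TRB vehicle and 12.3, 11.1 and 9.69 CPM in TRB T3. The groups overlapped, since the lowest vehicle library was below the highest T3 library. For PMAIP1 the log2 fold change was -0.30 ± 0.117 (edgeR adjusted p = 0.03197). That call is weak: PMAIP1 missed the threshold by DESeq2 (adjusted p = 0.09714), without a filter on low counts (0.06258) and without TRB vehicle replicates 1 (0.189) or 2 (0.1165) or TRB T3 replicates 2 (0.05445) or 3 (0.1677). At equal depth PMAIP1 stood at a log2 fold change of 0.12, in the other direction (adjusted p = 0.7371). BBC3, at chr19:47220822-47232766 on the minus strand, was the member with the fewest reads, 8 to 45 counts per library. It measured 4.21, 3.14 and 4.10 CPM in TRB vehicle and 2.40, 3.41 and 2.62 CPM in TRB T3, and the groups overlapped. The BBC3 log2 fold change was -0.43 with a 95% interval of -0.88 to 0.02 (edgeR adjusted p = 0.1175), so a change was not detectable at this depth.

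BAX is the effector among the members, a protein that oligomerises into the pore of the outer membrane. It lies at chr19:48954815-48961798 on the plus strand. It read 40.0, 32.5 and 39.6 CPM in TRB vehicle and 27.9, 34.4 and 30.2 CPM in TRB T3. A vehicle library at 32.5 CPM was below the T3 library at 34.4 CPM, so the groups overlapped. For BAX the log2 fold change was -0.27 ± 0.082 (edgeR adjusted p = 0.005518). The BAX call was lost without TRB vehicle replicate 1 (0.06338), without TRB T3 replicate 1 (0.05801) and at equal depth (0.1123).

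Of the 3 guardians, MCL1 and BCL2L1 fell by small amounts and BCL2 did not pass the test. MCL1, a short-lived guardian that holds BCL2L11, BAK1 and PMAIP1, lies at chr1:150574551-150579738 on the minus strand. It measured 433.9, 451.5 and 433.9 CPM in TRB vehicle and 380.5, 366.1 and 371.0 CPM in TRB T3. These groups were well separated although the change was small, with a log2 fold change of -0.24 ± 0.039 (edgeR adjusted p = 3.458e-07). MCL1 had the smallest standard error of the 10 and by far the most reads.

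BCL2L1 (the BCL-XL and BCL-XS gene, chr20:31664452-31723989, minus strand) read 101.5, 91.5 and 105.1 CPM in TRB vehicle and 86.2, 85.4 and 84.4 CPM in TRB T3. The T3 libraries were all lower and lay within a narrow band. For BCL2L1 the log2 fold change was -0.21 ± 0.050 (edgeR adjusted p = 0.0002621). The antisense gene ABALON covers 1424 bases of BCL2L1's exons (42.97%). BCL2, the founding guardian (chr18:63123346-63320128, minus strand), read 9.99, 8.85 and 9.97 CPM in TRB vehicle and 7.46, 8.71 and 8.47 CPM in TRB T3. The T3 libraries were all lower, by a narrow margin, and the log2 fold change of -0.22 had a 95% interval of -0.50 to 0.05 (edgeR adjusted p = 0.1959).

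In the EV cells, whose THRB RNA was lower, T3 changed 1 member, BMF, where 4.54% of all genes were called (2.84% up, 1.7% down). BMF measured 18.3, 12.2 and 11.7 CPM in EV vehicle and 18.5, 19.7 and 20.7 CPM in EV T3. The T3 libraries were all higher, but the highest vehicle library reached almost to the lowest T3 library. The BMF log2 fold change was 0.55 ± 0.110 (1.47-fold; edgeR adjusted p = 0.000431). That call was lost without EV vehicle replicate 3 (adjusted p = 0.07712) and at equal depth (0.2235).

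The other 9 members did not pass the test in EV cells, with log2 fold changes from -0.15 (PMAIP1) to 0.47 (BBC3). BCL2L11 read 51.7, 54.9 and 60.1 CPM in EV vehicle and 63.6, 57.2 and 55.2 CPM in EV T3, overlapping ranges with a log2 difference of 0.06 (95% interval -0.07 to 0.19; edgeR adjusted p = 0.7447). MCL1 read 431.7, 470.8 and 437.0 CPM against 445.1, 483.0 and 472.0 CPM, again overlapping, with a log2 difference of 0.06 (-0.02 to 0.14; edgeR adjusted p = 0.4484). For BIK the interval ran from -0.26 to 0.28, so a fall as large as that in TRB cells lay outside it. BCL2 leaned upward (6.50, 9.08 and 9.81 against 11.9, 9.40 and 11.7 CPM; log2 difference 0.32, interval 0.04 to 0.61), without passing after adjustment (edgeR adjusted p = 0.2285). Only BMF and PMAIP1 had groups that did not overlap, 2 of 10 against 20.5% of all genes.

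**Figure D2:**
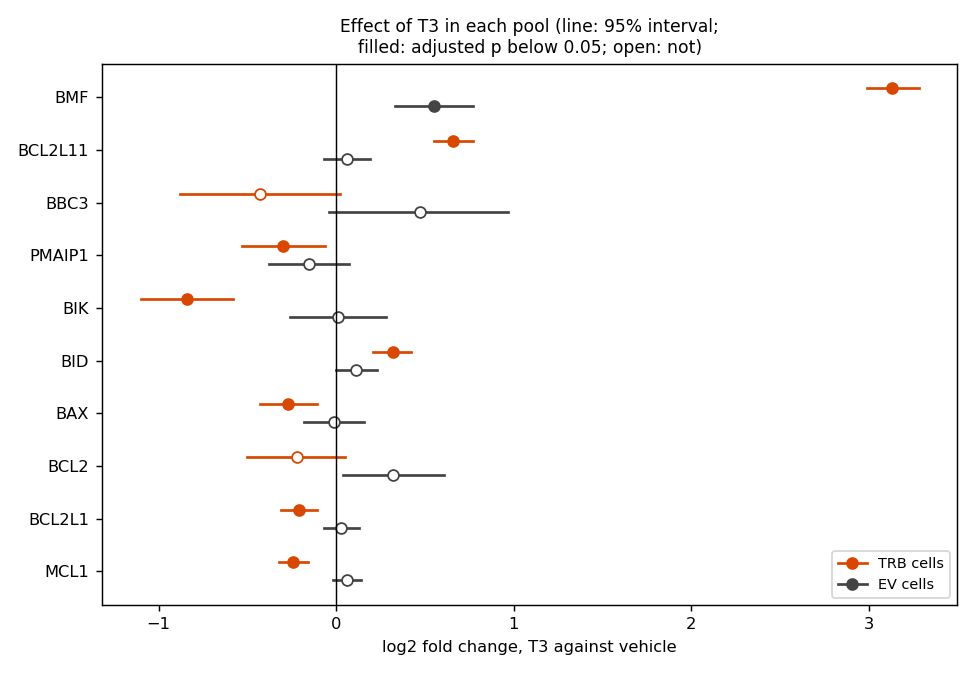
The log2 fold change of T3 against vehicle is plotted for each member in TRB cells (orange) and EV cells (dark grey), with 95% intervals; filled points passed an adjusted p of 0.05. BMF stands at 3.13 in TRB and 0.55 in EV cells, the only member called in both.

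Whether the T3 effect differed between the populations was tested directly, as the T3 change in TRB cells minus that in EV cells. The difference passed for 8 of the 10 members, 3 higher and 5 lower in TRB cells, where 23.9% of all genes passed (12.3% higher, 11.6% lower). It was 2.58 ± 0.148 for BMF (log2, ± SE; edgeR adjusted p = 4.94e-24), 0.60 ± 0.086 for BCL2L11 (4.56e-08), -0.85 ± 0.187 for BIK (0.0002498) and -0.30 ± 0.055 for MCL1 (1.027e-05). These 4 kept their calls under every alternative run for this difference. BCL2L1 had a difference of -0.24 ± 0.072 (edgeR adjusted p = 0.007605), lost without EV vehicle replicate 3 (0.06095).

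BBC3, BCL2 and BID passed narrowly, and the direction of BBC3 and BCL2 was up in EV and down in TRB cells. The differences were -0.89 ± 0.338 for BBC3 (edgeR adjusted p = 0.04411), -0.54 ± 0.199 for BCL2 (0.03748) and 0.20 ± 0.078 for BID (0.04847). Each was lost under many of the 21 alternatives: BBC3 in 11, BCL2 in 10 and BID in 14, in each case including DESeq2, no filter on low counts and equal depth. The BBC3 call was lost without EV vehicle replicates 1 or 2, EV T3 replicates 2 or 3, TRB vehicle replicates 1 or 3 or TRB T3 replicates 1 or 3 (adjusted p from 0.07171 to 0.1501). The BCL2 call was lost without EV vehicle replicates 1 or 2, EV T3 replicates 1 or 3, TRB vehicle replicates 1 or 3 or TRB T3 replicate 1 (0.05503 to 0.1291). The BID call was lost without EV vehicle replicates 2 or 3, EV T3 replicates 1 or 2, TRB vehicle replicates 1 or 2 or TRB T3 replicates 1 or 2 (0.06942 to 0.1657). PMAIP1 (-0.15; edgeR adjusted p = 0.5731) and BAX (-0.26; 0.09988) did not pass, although BAX did when EV T3 replicate 1 (0.03289), TRB vehicle replicate 2 (0.02168) or TRB T3 replicate 2 (0.02459) was left out.

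Without T3, the populations differed little in these genes. Only BCL2L11 was called, higher in TRB (58.6, 66.6 and 66.8 CPM) than in EV cells (51.7, 54.9 and 60.1 CPM), with a log2 fold change of 0.19 ± 0.067 (edgeR adjusted p = 0.04565), where 15.3% of all genes were called and 7.86% were higher and 7.4% lower. The groups overlapped, and the call was lost under 10 of 22 alternatives, among them DESeq2 (0.1217) and leaving out EV vehicle replicates 1 (0.1874) or 2 (0.1708) or TRB vehicle replicates 2 (0.221) or 3 (0.1751). PMAIP1 was lower in all TRB vehicle libraries (14.98, 14.0 and 11.6 CPM) than in EV vehicle (17.6, 17.5 and 16.3 CPM) at a log2 fold change of -0.33 ± 0.122, just short of the threshold (edgeR adjusted p = 0.05673). It passed under 7 of 22 alternatives, such as the fit of these 2 groups alone (0.04409), the replicate block (0.04521) and without TRB vehicle replicate 1 (0.03718) or TRB T3 replicate 3 (0.0495). With offsets for GC content or with protein-coding genes alone, PMAIP1 was called (0.02744 and 0.03935) and BCL2L11 was not (0.06594 and 0.05146).

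BIK leaned higher in TRB vehicle libraries (11.8, 13.2 and 11.9 CPM against 8.90, 11.1 and 10.3 CPM; log2 fold change 0.27, edgeR adjusted p = 0.2057) and passed only at equal depth (0.04627). PMAIP1 and BIK were the 2 of 10 members without overlap, against 30.1% of all genes. BMF was not called (0.23; edgeR adjusted p = 0.2226), except without EV vehicle replicate 1, the highest of its group (0.02895).

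With T3 in both populations, 9 of the 10 members differed, 3 higher and 6 lower in TRB cells; 40.7% of all genes were called, 21.0% higher and 19.7% lower. The T3 libraries of TRB cells are shared with the T3 comparison above, so these values are a second view of the same 3 libraries. BMF was 7.03-fold higher (log2 2.81 ± 0.063; edgeR adjusted p = 1.964e-48), BCL2L11 stood 0.79 ± 0.053 higher (2.831e-21) and BID 0.23 ± 0.049 higher (7.58e-05). The lower members were BIK (-0.58), PMAIP1 (-0.48), BCL2 (-0.42), MCL1 (-0.33), BAX (-0.26) and BCL2L1 (-0.23).

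BCL2 passed here (7.46, 8.71 and 8.47 CPM in TRB T3 against 11.9, 9.40 and 11.7 CPM in EV T3; edgeR adjusted p = 0.004779), with no overlap. BBC3 did not (-0.36; interval -0.78 to 0.06; edgeR adjusted p = 0.1769). The groups did not overlap for 8 of 10 members, against 47.6% of all genes. The calls of BIK (0.1158), BID (0.2276) and BCL2 (0.2084) were lost at equal depth, and that of BAX without TRB T3 replicate 1 (0.0576).

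**Figure D3:**
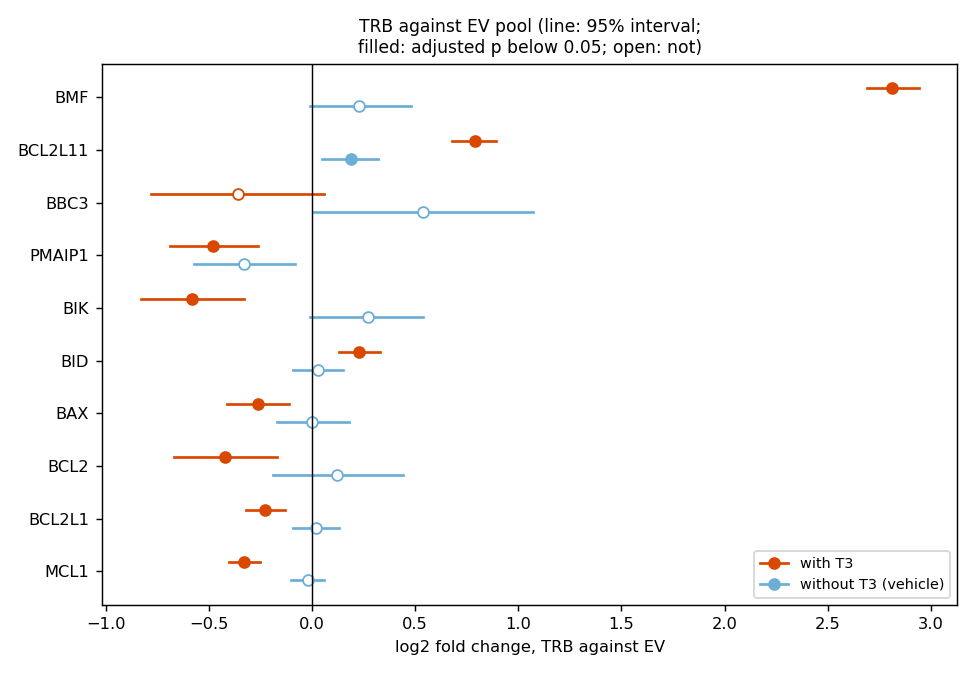
The log2 fold change of TRB against EV cells is plotted for each member with T3 (orange) and with vehicle (blue), with 95% intervals; filled points passed an adjusted p of 0.05. BMF moves from 0.23 without T3 to 2.81 with it, and BIK from 0.27 to -0.58.

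Per kilobase of exon, the order of the members' levels was nearly the same in 3 groups and changed in TRB T3. MCL1 was highest in every group, at 109.3, 114.2 and 107.7 CPM per kb in EV vehicle, EV T3 and TRB vehicle and 91.2 in TRB T3. BCL2L1 came second in those 3 groups (34.4, 34.9 and 34.8 CPM per kb), ahead of BID and BAX (25.8 to 28.0), whose library ranges overlapped there. BIK (10.6 to 12.9), BCL2L11 (9.13 to 10.5), PMAIP1 (6.45 to 8.16), BMF (2.86 to 3.996), BBC3 (1.18 to 1.82) and BCL2 (0.721 to 0.935) followed, all in CPM per kb. BIK and BCL2L11 were not separated in either EV group.

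In TRB T3, BMF moved from the eighth to the fourth place, at 28.2 ± 0.562 CPM per kb, just under BCL2L1 (29.9 ± 0.312), and the library ranges of these neighbours did not overlap. BID (32.9 ± 0.967) stood above BCL2L1, and BCL2L11 (16.6 ± 0.410) above BIK (7.25 ± 0.528). BCL2 remained the lowest member (0.699 ± 0.0567). Exon length here is the union over the basic GENCODE 29 transcripts, so levels of genes that use only part of it are understated.

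**Figure D4:**
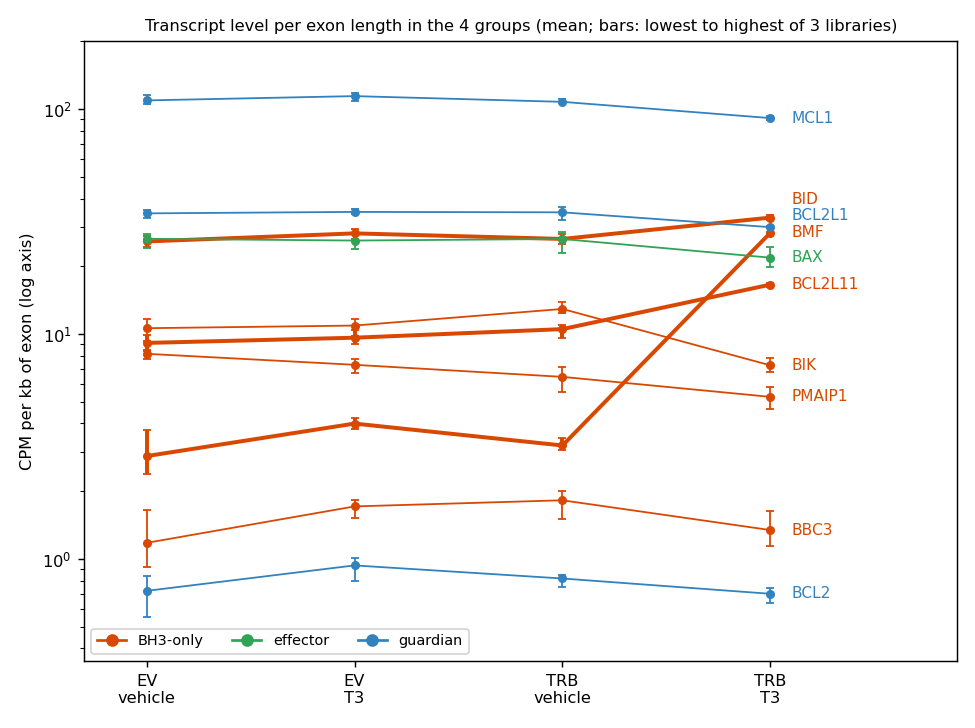
Mean level of each member per kilobase of exon (CPM per kb, log axis) in the 4 groups; bars run from the lowest to the highest of 3 libraries, and colour marks BH3-only, effector and guardian genes. BMF climbs from 3.19 in TRB vehicle to 28.2 in TRB T3, while MCL1 stays on top in each group.

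The rest of the BCL2 family was read from 3 lists. Of the other effectors, BAK1, which opens the membrane as BAX does, rose with T3 in TRB cells (20.2 to 22.9 CPM in vehicle and 38.5 to 42.1 CPM in T3; log2 fold change 0.91 ± 0.079; edgeR adjusted p = 5.815e-16), and BOK (0.12) was not called. The BAK1 effect was 0.64 ± 0.124 larger in TRB than in EV cells (edgeR adjusted p = 3.227e-05), a difference lost at equal depth (0.3526). BAX and BAK1, the effectors of the same step, thus had calls in opposite directions in TRB cells, that of BAX being the less stable. Of the other guardians only BCL2L2 (BCL-W) had enough reads, and it rose by a small amount (0.31 ± 0.067, edgeR adjusted p = 7.952e-05), a call lost at equal depth (0.102). Its T3 effect did not differ between the populations by the test (0.18, edgeR adjusted p = 0.1887). Without T3, BCL2L2 was lower in all TRB than in all EV libraries, short of the threshold (-0.20, edgeR adjusted p = 0.06186). With T3 the difference was -0.02. BCL2A1 and BCL2L10 had at most 6 counts in any group.

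Among 7 further BH3-only and related genes tested, 1 rose and 2 fell, a share near the 44.4% of all genes. HRK, a BH3-only gene best known from neurons, stood at 3.42 to 3.58 CPM in TRB vehicle and 11.4 to 13.0 CPM in TRB T3, a log2 fold change of 1.80 ± 0.156 (edgeR adjusted p = 3.752e-16). Unlike BMF, HRK was lower in TRB than in EV cells without T3 (EV vehicle 5.78 to 8.28 CPM), with a log2 fold change of -1.04 ± 0.194 (edgeR adjusted p = 4.011e-05). With T3 in both, HRK was only 0.40 ± 0.116 higher in TRB cells (EV T3 9.06 to 9.45 CPM, edgeR adjusted p = 0.003609), a call lost at equal depth (0.8964). The HRK rise in TRB cells thus began from a lower vehicle level than in EV cells. BNIP3L (-0.56) and BNIP3 (-0.42), mitophagy receptors with a BH3-like stretch, fell, the latter not at equal depth (adjusted p = 0.1175). Without T3, both were higher in TRB than in EV cells (0.37 and 0.35, edgeR adjusted p = 1.772e-06 and 0.04049). That BNIP3 call was lost under several alternatives. With T3 in both, neither was called (edgeR adjusted p = 0.1068 and 0.3295). The T3 effect differed between the populations for BNIP3L (-0.48, edgeR adjusted p = 1.895e-06, lost at equal depth) and not for BNIP3 (-0.21, 0.3929). In EV cells, where T3 called 4.54% of all genes, 0 of these 10 genes passed by edgeR and 0 by DESeq2, and 2 had an unadjusted p below 0.05.

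**Figure D5:**
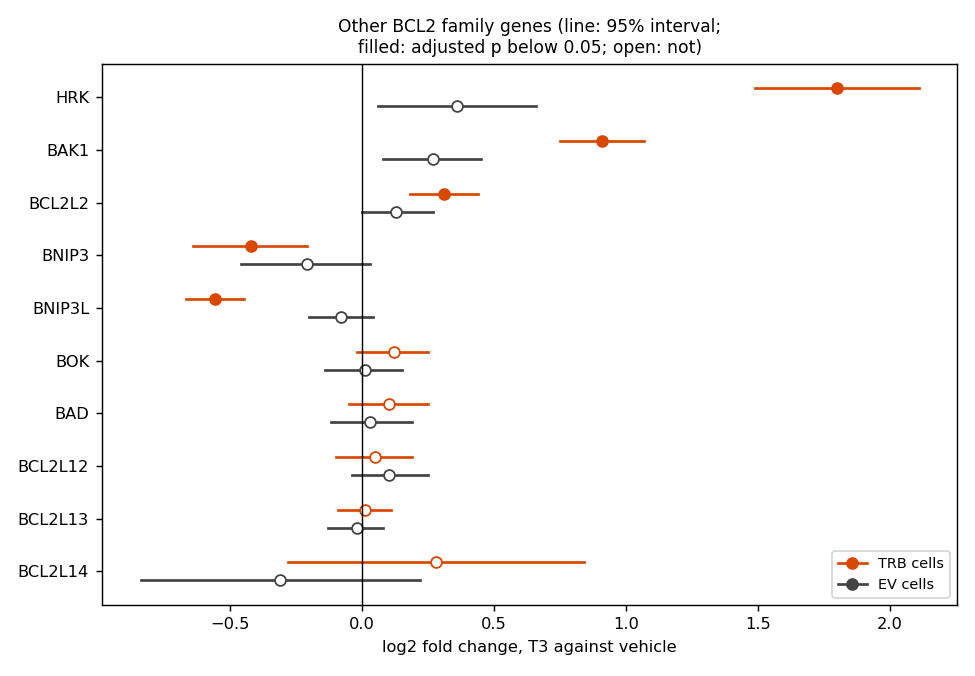
The log2 fold change of T3 against vehicle for the 10 tested BCL2 family genes outside the 10 members, in TRB cells (orange) and EV cells (dark grey), with 95% intervals; filled points passed an adjusted p of 0.05. HRK (1.80), BAK1 (0.91) and BCL2L2 (0.31) rose and BNIP3 and BNIP3L fell in TRB cells.

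Downstream of the membrane, 17 apoptosome, caspase and inhibitor-of-apoptosis (IAP) genes split evenly in TRB cells, 4 up and 4 down, a share close to the 44.4% of all genes. CYCS, cytochrome c itself, rose (0.30 ± 0.045; edgeR adjusted p = 6.745e-08), as did DFFA, the inhibitor of the caspase-activated nuclease (0.33), and the IAP genes BIRC6 (0.22) and BIRC3 (0.25, not at equal depth). BIRC5 (survivin), an IAP-family gene that peaks in mitosis, fell (-0.29 ± 0.046; edgeR adjusted p = 1.803e-07). In EV cells, where 4.54% of all genes were called, 0 of the 17 were called by edgeR and 0 by DESeq2. Of the 17, 5 had an unadjusted edgeR p below 0.05, as did at least 2323 of all 14549 genes. The median log2 fold change of the list in TRB cells was 0.06.

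Of 9 genes for partners of the members or for their turnover, 4 rose and 1 fell in TRB cells, a share near the 44.4% of all genes. DESeq2 called 3 of the 9, and 5302 of the 14549 genes. DYNLL2, the dynein light chain that tethers BMF, rose by 0.30 ± 0.043 on the log2 scale (edgeR adjusted p = 2.056e-08), and DYNLL1, the light chain that tethers BCL2L11, fell by 0.13 ± 0.042 (0.008403). VDAC2 (0.18), MARCH5 (0.15) and USP9X (0.09) rose by amounts whose calls were lost under several alternatives. In EV cells, where edgeR called 4.54% of all genes and DESeq2 called 401 genes, each called 1 of the 9. It was HUWE1 in both, lower with T3 (-0.13, edgeR adjusted p = 0.04024).

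Of 11 transcription factor genes reported upstream of members, 2 rose and 4 fell in TRB cells, again near the 44.4% of all genes. FOXO1 measured 17.8 to 19.1 CPM in TRB vehicle and 28.98 to 30.6 CPM in TRB T3. The FOXO1 log2 fold change was 0.67 ± 0.090 (edgeR adjusted p = 2.462e-09). Its relative FOXO3, in the same list and at a higher level, moved the other way (112.5 ± 2.17 to 87.4 ± 1.61 CPM). For FOXO3 the log2 fold change was -0.36 ± 0.047 (edgeR adjusted p = 8.607e-10). JUN (-0.59) and RELA (-0.13) also fell, RELA not at equal depth or without TRB vehicle replicate 3 (adjusted p = 0.4509 and 0.05804), and E2F1 rose (0.18), though not with offsets for GC content (0.105). In EV cells, where 4.54% of all genes were called, E2F1 was the 1 gene called of the 11. It had the same rise of 0.18 (edgeR adjusted p = 0.04446), and DESeq2 called 0.

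Of 14 other FOXO targets tested, 3 rose and 10 fell, against 44.4% of all genes called in either direction (22.4% up, 21.9% down); DESeq2 called 10 of the 14. The list had a median log2 fold change of -0.40. In EV cells edgeR called 5 of the 14, 2 up and 3 down, where 4.54% of all genes were called, and DESeq2 called 3. In TRB cells TNFSF10, the death ligand TRAIL, rose by 2.67 ± 0.049 (edgeR adjusted p = 6.172e-54) and FBXO32 by 0.54, while SESN3 (-1.35), CITED2 (-0.84), IRS2 (-0.68) and CCNG2 (-0.65) fell. Without T3, 8 of the 14 already differed between the populations, 6 higher and 2 lower in TRB cells, where 15.3% of all genes were called. DESeq2 called 5 there. In vehicle, CITED2 (111.8 against 83.1 CPM), SESN3 (61.2 against 53.5) and CCNG2 (43.6 against 36.8) averaged higher in TRB than in EV cells. IRS2 averaged lower (37.6 against 45.8 CPM). TNFSF10 also rose in EV cells, from 51.7 to 101.1 CPM, against 51.8 to 329.0 CPM in TRB cells.

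For the 3 members with the clearest difference in T3 effect, the named protein-coding genes with the most similar level pattern were sought among 11736 genes. The patterns were the 4 group means of log2 CPM, centred per gene. A small constant was added to the CPM before the log, which shrinks the changes of genes near 0. Only genes with a mean of at least 1 CPM over all libraries were compared. The nearest to BMF was EGR3 (root mean square difference 0.074), then KCNS1 (0.148) and FES (0.167). EGR3 averaged 0.454, 0.824, 0.481 and 8.14 CPM in EV vehicle, EV T3, TRB vehicle and TRB T3, and FES 0.123, 0.153, 0.177 and 5.31 CPM. With T3 in TRB cells their log2 fold changes were 4.10 and 4.88, larger than BMF's 3.13, so these 2 matches rest partly on the constant. EGR3 and FES also averaged below 1 CPM in every group but TRB T3. They entered the search only through the group where they are high, so their likeness to BMF is partly built in. KCNS1 had 2.95 in TRB and 0.16 in EV cells, where BMF had 0.55. KCNS1 averaged 7.54, 8.47, 8.91 and 69.3 CPM in EV vehicle, EV T3, TRB vehicle and TRB T3, so like BMF it was high in 1 group. For BCL2L11 the nearest were NRTN (0.016), SPDEF (0.020) and TRAK1 (0.022), and for MCL1 they were EVPL (0.005), SPAG7 (0.009) and CDT1 (0.011).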

How the data were processed

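RNA was sequenced from 12 libraries, 3 per group, made with a NEBNext Ultra II RNA kit, per the labels' protocols. CASAVA 1.7, STAR 2.7, HTSeq 0.10, DESeq2 and build hg38 are named, per the submitters' processing notes; the annotation, and whether counting used strand, are not given in the sources used here. For every library, the authors deposited a whole-number count for each gene. The authors also deposited a normalized table, here called a score as its unit is not stated; it matched each library's counts over 1 factor to within 1 and was used only as a check. Lines naming no gene (31.87% to 39.24% of each library) were left out.

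Counts were tested with edgeR 4.0.16 (limma 3.58.1, R 4.3.3): filterByExpr with minimums of 10 and 15 (total), TMM scaling, 4 group means in 1 robust quasi-likelihood fit with 8 residual degrees of freedom, and Benjamini-Hochberg adjustment over 14549 genes. CPM use TMM-scaled library sizes. Alternatives were DESeq2 1.42.0, other scalings and filters, the compared groups alone, a replicate block, thinning to 4241863 counts, leaving out each library and, chosen after seeing the data, GC offsets and protein-coding genes only. Named are all members, of each list reported up to 6 genes called with T3 in TRB cells by smallest p, and the 3 nearest genes to 3 members. Some of the listed genes are not reported here. The members and lists were chosen with earlier results of these data known. Coordinates and lengths are from GENCODE 29.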

Additional observations from a re-analysis of the deposited data

Results flagged for a closer look

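For 8 of the 10 members the T3 effect differed between the TRB and EV cells by edgeR's test of the difference (T3 change in TRB minus that in EV, log2), where 23.9% of all genes passed. The 3 positive differences were BMF (2.58), BCL2L11 (0.60) and BID (0.20). The 5 negative ones were BBC3 (-0.89), BIK (-0.85), BCL2 (-0.54), MCL1 (-0.30) and BCL2L1 (-0.24). The calls of BBC3, BCL2 and BID were lost under 11, 10 and 14 of 21 alternatives, and DESeq2 called 5 members. With 1 cell population per vector, a difference between populations and a difference due to the receptor cannot be told apart.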

How the results depend on the processing

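Each of the 10 members' 5 tests was repeated under up to 22 alternatives, 1090 values in all: 993 kept their direction and side of the threshold, 61 lost a call, 12 gained one and 24 changed sign. BMF, BCL2L11, BIK, BID, BCL2L1 and MCL1 kept their T3 calls in TRB cells under all 22. At equal depth, a single random draw with every library at the shallowest total, 10 of the 27 member calls were lost and PMAIP1 changed sign with T3 in TRB cells (0.12) and in the difference of T3 effects (0.13). The draw discards reads and so lowers power for every gene. A call lost at equal depth therefore cannot tell an effect of unequal depth from too few reads.

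The number of members called changed as follows. With T3 in TRB cells it was 6 at equal depth and ranged from 6 to 8 when single libraries were left out. With T3 in EV cells it was 0 at equal depth and ranged from 0 to 1 without single libraries. Between the populations without T3 it was 0 with DESeq2, with RLE scaling and without a filter, and 2 in the compared groups alone, at equal depth and with the replicate block, and ranged from 0 to 2 without single libraries. With T3 it was 6 at equal depth and ranged from 8 to 9 without single libraries. For the difference of T3 effects it was 5 with DESeq2, without a filter and at equal depth, and ranged from 5 to 8 without single libraries; the fit of compared groups alone gives no value there.

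The labels state no pairing of the replicate numbers, and the values showed no sign of one. The 18 same-number pairs had correlations of -0.124 to 0.083, and a pair with different numbers reached 0.141. Low correlations cannot show that the libraries were unpaired. With the replicate block, PMAIP1 was called between the populations without T3 (adjusted p = 0.04521), and no other member call changed.

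The remaining sign changes were in values near 0 that passed no test. Without single libraries, the T3 effect in EV cells ranged from 0.00 to 0.12 for BCL2L11, -0.04 to 0.09 for BIK, -0.09 to 0.06 for BAX and -0.01 to 0.05 for BCL2L1. BIK was also at -0.01 with GC offsets, and BAX at 0.01 without a filter and 0.15 at equal depth. Between the populations without T3, the ranges were -0.01 to 0.06 for BID, -0.08 to 0.10 for BAX, -0.03 to 0.07 for BCL2L1 and -0.05 to 0.01 for MCL1, and BAX was at 0.00 with DESeq2 and -0.01 with protein-coding genes only.

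Over all genes, equal depth gave 3681 calls (6456 as reported) with T3 in TRB cells, 200 (660) in EV cells, 820 (2220) and 3162 (5916) between the populations without and with T3, and 1635 (3470) for the difference. In EV cells DESeq2 gave 401, and omitting EV vehicle replicate 1, EV vehicle replicate 3 or EV T3 replicate 2 gave 396, 275 and 341. There 413 genes rose and 247 fell, against 403 and 136 without a filter.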
